A study of Mus musculus with 4 samples.

Results

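The antioxidant genes described here are the transcription factor gene Nfe2l2, which encodes NRF2, 5 genes that NRF2 is known to switch on (Nqo1, Gclc, Gclm, Txnrd1 and Srxn1) and 4 general antioxidant enzyme genes (Cat, Sod1, Sod2 and Gpx1). They were taken as every probe set whose annotated gene symbol is one of these 10 names, which gave 20 probe sets of 10 genes, out of 22626 probe sets tested and 12393 genes. Liver total RNA was hybridised to Affymetrix arrays from 2 mice starved for 24 h and 2 control mice, all wild type, of the C57/BL6 background and 1 month old. The description field speaks of injected and not-injected mice where the titles and the treatment field speak of starved and control ones. Samples were grouped by title and treatment, and the meaning of the injection stayed unclear. Each mouse gave 1 array, and precision is limited by how few arrays there are.

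NRF2 is a transcription factor that is held in the cytoplasm by KEAP1 and degraded. When electrophiles or oxidants modify KEAP1, NRF2 builds up in the nucleus, pairs with small MAF proteins and binds the antioxidant response element of its target genes, a site that the repressor BACH1 can also occupy. Its targets make glutathione, reduce thioredoxin and peroxiredoxins and detoxify quinones. The liver also carries large amounts of catalase, superoxide dismutases and glutathione peroxidase, since mitochondrial respiration and peroxisomal oxidation of fatty acids release superoxide and hydrogen peroxide.

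The core of the antioxidant response element, TGACNNNGC, was searched on both strands of RefSeq promoter windows of the GRCm38.p6 assembly, which run from 250 bases before a gene's start to 50 after it. Of the 10 genes, 9 had at least 1 window, with 11 windows in all, and Gclc was not listed. A match lay in 5 of these 11 windows, those of 5 genes, and 12.4% of all 32851 windows hold one. The matches are shown because NRF2 is known to act on its targets through elements with this core. Of the genes with a match, Gclm, Txnrd1 and Srxn1 are among the known targets named above. Nqo1, also named there, had no match. Each is given 5′ to 3′ on the strand that reads the core, with the core in capitals and 10 flanking bases on either side.
Nfe2l2 (chr2:75704885-75704913, minus strand): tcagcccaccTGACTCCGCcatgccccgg
Gclm (chr3:122245413-122245441, minus strand): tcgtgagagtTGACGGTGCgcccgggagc
Txnrd1 (chr10:82859104-82859132, minus strand): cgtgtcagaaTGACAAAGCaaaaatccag
Srxn1 (chr2:152105542-152105570, minus strand): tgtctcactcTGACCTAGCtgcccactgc
Sod1 (chr16:90220696-90220724, minus strand): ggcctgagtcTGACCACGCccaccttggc
In Nfe2l2 the core lies on the coding strand and begins 240 bases before the start, while in the other 4 genes it lies on the opposite strand. Its end nearest the upstream side is 134 bases before the start in Gclm, 92 before it in the Txnrd1 window concerned, 56 before it in Sod1 and 29 bases into the transcribed part in Srxn1. A match is a run of letters and not evidence of binding, and elements farther from the start than this window were not searched.

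Values below are log2 RMA signals, 1 summary per probe set and array, and each change is the mean of the starved arrays less that of the control arrays. Changes were tested in limma, which fits a linear model to each probe set and steadies its error (SE) with the spread of all the others, and a probe set passed at a Benjamini-Hochberg adjusted p under 0.05. The level of one probe set was not compared with that of another. One control array stood apart in inflammation genes: Saa3, a serum amyloid gene, read 8.74 and 8.76 in starved liver and 8.77 and 12.36 in control liver. Lcn2 and Orm2, a lipocalin and an orosomucoid of the same response, had their highest signal on that array too, at 13.49 and 13.79. The mean over 28 acute phase probe sets was 11.84 and 11.85 in starved liver and 12.07 and 13.09 in control liver. Their median log2 change was -0.49, and 0 passed limma's test. At an unadjusted p under 0.05, 1 was higher and 8 lower (32.1%, against 11.5% of all probe sets). Both starved arrays lay below both control arrays in 18 of the 28 and above in 1 (67.9% together, against 41.9% of all probe sets). Saa4, Hamp and Orm1, with the smallest p of the list, were lower on both starved arrays than on either control array. Their changes were -0.93 ± 0.12, -1.29 ± 0.19 and -0.67 ± 0.19 (SE). Hepatocyte markers, with 5 of 6 measured, averaged 14.76 and 14.62 in starved liver and 14.72 and 14.61 in control liver. Kupffer cell and macrophage markers, 8 of 8 measured, averaged 8.85 and 8.99 in starved liver and 8.79 and 9.20 in control liver. Erythroid markers, of a cell rich in catalase, SOD1 and GPX1, averaged 6.02 and 5.94 in starved liver and 5.90 and 5.69 in control liver, with 3 of 7 measured. Over the marker lists of these and of sinusoidal endothelial cells, stellate cells, cholangiocytes, neutrophils and lymphocytes, 0 of 61 probe sets passed limma's test and 9 had an unadjusted p under 0.05 (14.8%, against 11.5% of all probe sets), 8 higher and 1 lower. Among the higher ones were both probe sets of the endothelial gene Lyve1, chosen after its values were seen, with log2 changes of 1.81 and 1.09. Endothelial markers averaged 7.97 and 7.74 in starved liver and 7.96 and 7.31 in control liver. With 1 probe set per gene, 2 of them had positive and 4 negative changes, with a median of -0.07. The part of the cell type markers in the results below was not tested. RNA integrity was read from the 3′ and 5′ actin control probe sets, whose gap was 2.06 and 1.85 in starved liver and 1.79 and 1.76 in control liver.

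The antioxidant genes showed small differences in both directions after starvation. Of the 20 probe sets, 0 passed limma's test with Benjamini-Hochberg adjustment over all 22626 probe sets (lowest adjusted p = 0.323, Sod2). In the same test 13 probe sets of the array passed, 0.0575% of those tested, with 4 higher (0.0177%) and 9 lower (0.0398%). At an unadjusted p under 0.05 there was 1 of the 20, a higher one, which is 5%, against 11.5% over the array (5.42% higher and 6.04% lower). Log2 changes ran from -0.36, for Gclc, to 0.39, for Sod2, with a median of -0.02, and the median over all probe sets was 0.003. In size the median change of the 20 was 0.14, against 0.13 over all probe sets. The 95% confidence intervals, each for a single probe set and not adjusted for their number, had a median width of 0.32 to either side, and 19 of 20 included 0. All 20 lay within a 2-fold change in either direction, and their outermost bounds were 0.546-fold and 1.75-fold. In bulk liver, fewer cells of a type and less RNA per cell cannot be told apart.

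**Figure D1:**
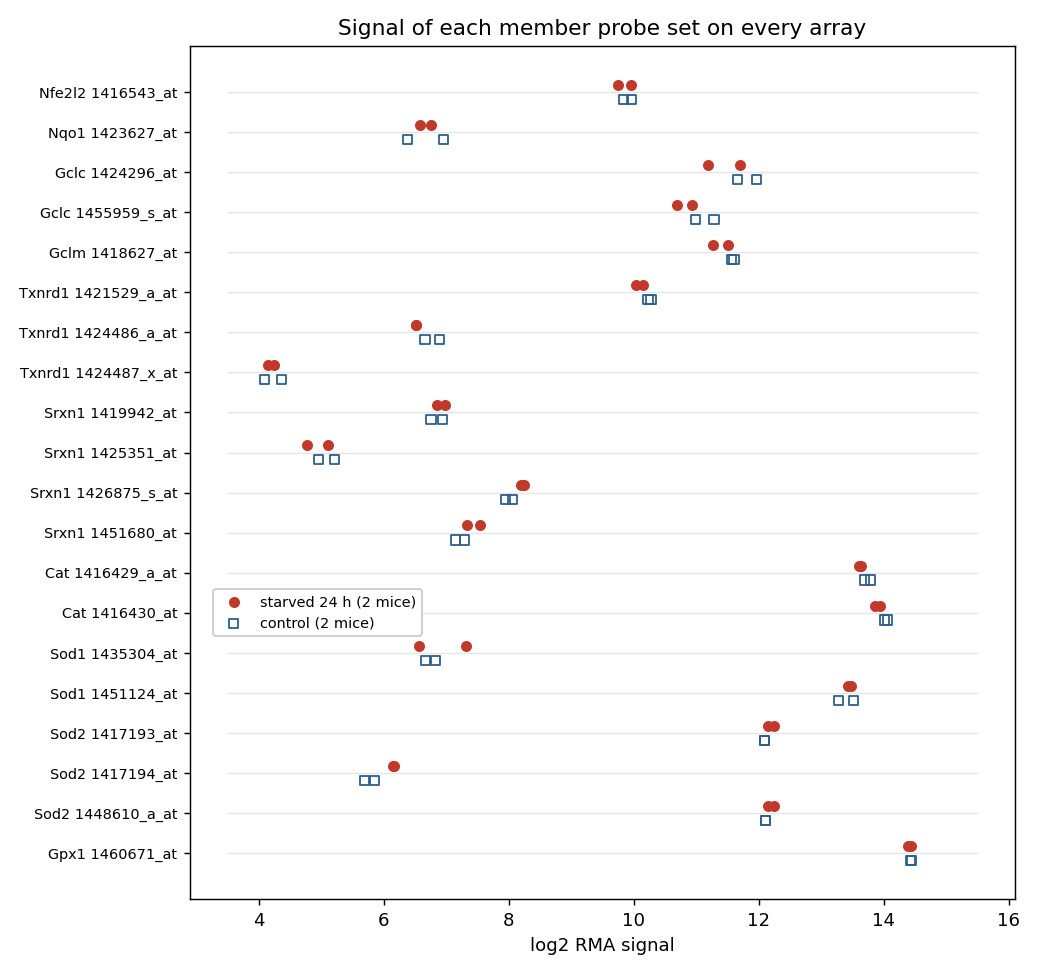
Log2 RMA signal of the 20 probe sets (one row each, named by gene and probe set) on all 4 arrays, with starved mice as filled circles above control mice as open squares. Arrays of a row lie close together, and the widest gap within a group is that of Sod1 1435304_at, 0.75 between the starved mice.

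Nfe2l2 itself, measured by 1 probe set, had signals of 9.75 and 9.96 in starved liver and 9.96 and 9.84 in control liver. The groups overlapped, and the change of -0.04 ± 0.13 (SE) was smaller than the gap of 0.21 between the starved mice. Its 95% interval ran from -0.37 to 0.28 on the log2 scale. NRF2 is known to be controlled mainly through protein stability, which an RNA array does not measure. Keap1, chosen after its values were seen because it encodes the protein that holds NRF2, read 8.96 and 9.07 in starved liver and 8.96 and 9.01 in control liver. Its change was 0.03 ± 0.12.

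Gclc and Gclm encode the catalytic and the modifier subunit of glutamate-cysteine ligase, the first and rate-limiting enzyme of glutathione synthesis. Gclc probe set 1424296_at read 11.19 and 11.70 in starved liver and 11.96 and 11.66 in control liver. Starved 1 lay below the other 3 arrays, and starved 2 lay between the control mice. The second Gclc probe set, 1455959_s_at, read 10.69 and 10.93 in starved liver and 11.28 and 10.99 in control liver, so both starved arrays were below both control arrays. The 2 probe sets had changes of -0.36 ± 0.21 and -0.33 ± 0.16 (SE), neither past limma's test (adjusted p = 0.579 and 0.502).

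Gclm read 11.26 and 11.52 in starved liver and 11.57 and 11.60 in control liver. Both starved mice lay below both control mice, and starved 1 was again the lower of its pair. The change was -0.20 ± 0.13, or 0.873-fold (limma, adjusted p = 0.652). For both subunits the change was smaller without starved 1, at -0.10 and -0.20 for the Gclc probe sets and -0.07 for Gclm, and larger without starved 2, at -0.62, -0.45 and -0.32 in the same order. The Gclc changes were also smaller without control 1, at -0.21 and -0.18, and larger without control 2, at -0.51 and -0.47. Starved 1 is also the array with the actin 3′ to 5′ gap of 2.06, and the part of RNA integrity in these values was not tested.

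Txnrd1 encodes cytosolic thioredoxin reductase, a selenoprotein that keeps thioredoxin reduced with electrons from NADPH. Probe set 1421529_a_at read 10.15 and 10.04 in starved liver and 10.23 and 10.28 in control liver, and 1424486_a_at read 6.51 and 6.52 in starved liver and 6.66 and 6.89 in control liver. In both, the starved mice lay below the control mice. The changes were -0.16 ± 0.12 and -0.26 ± 0.13 (SE), not past limma's test (adjusted p = 0.677 and 0.518). The remaining probe set, 1424487_x_at, had a change of -0.03 ± 0.14 with overlapping groups. Its signals, from 4.09 to 4.37, were under each array's lower quartile, and probe sets of this type may hybridise to related transcripts.

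Srxn1 encodes sulfiredoxin, which restores over-oxidised peroxiredoxins. Its 4 probe sets differed in sign. Probe set 1426875_s_at read 8.25 and 8.19 in starved liver and 8.06 and 7.95 in control liver, and 1451680_at read 7.33 and 7.54 in starved liver and 7.29 and 7.14 in control liver. In both, the starved mice lay above the control mice, with changes of 0.22 ± 0.12 and 0.22 ± 0.13 (SE). The others overlapped between groups, with 0.07 ± 0.13 for 1419942_at and -0.14 ± 0.17 for 1425351_at. The latter, with the negative change, read 4.78 and 5.11 in starved liver and 5.22 and 4.95 in control liver. These signals lay near the arrays' lower quartiles, of 5.08 to 5.13, among the 40% of all probe sets with the lowest mean. None of the 4 passed limma's test over all probe sets (adjusted p = 0.553 to 0.913), nor did any of them reach an unadjusted p under 0.05.

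Nqo1 encodes the quinone reductase that serves as the usual readout of NRF2 activity. It read 6.75 and 6.58 in starved liver and 6.96 and 6.38 in control liver. The starved mice lay between the control mice, which were 0.58 apart. The change was 0.00036 ± 0.21 (SE), and its 95% interval ran from -0.52 to 0.52.

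Catalase, the peroxisomal enzyme that splits hydrogen peroxide, was measured by 2 probe sets. Probe set 1416430_at read 13.95 and 13.85 in starved liver and 14.01 and 14.06 in control liver. Probe set 1416429_a_at read 13.64 and 13.60 in starved liver and 13.70 and 13.79 in control liver. In both, the starved mice lay below the control mice, by changes of -0.13 ± 0.11 and -0.12 ± 0.11 (SE), or 0.912-fold and 0.919-fold, not past limma's test (adjusted p = 0.739 and 0.767). The 95% interval of 1416430_at ran from -0.42 to 0.15.

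Gpx1, the selenium-dependent glutathione peroxidase of cytosol and mitochondria, read 14.39 and 14.44 in starved liver and 14.42 and 14.44 in control liver. The groups overlapped, and the change of -0.02 ± 0.11 had a 95% interval of -0.29 to 0.26. The highest signal on any array was 15.47, and whether signals this close to it respond less to added RNA was not tested.

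Sod1, the copper-zinc superoxide dismutase of the cytosol, read 13.42 and 13.48 in starved liver and 13.52 and 13.27 in control liver on probe set 1451124_at. The starved mice lay between the control mice, and the change was 0.06 ± 0.13 (SE). Probe set 1435304_at of the same gene read 7.32 and 6.57 in starved liver and 6.84 and 6.67 in control liver. There the starved mice lay on either side of the control mice, and the change of 0.19 ± 0.25 had the widest interval of the 20, from -0.43 to 0.81.

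Sod2, the manganese superoxide dismutase of mitochondria, had both starved arrays above both control arrays on each of its 3 probe sets. Probe set 1417194_at read 6.17 and 6.16 in starved liver and 5.70 and 5.85 in control liver. Its change was 0.39 ± 0.12 (SE), or 1.31-fold, with a 95% interval of 0.09 to 0.68. This is the probe set with an unadjusted p under 0.05, and its adjusted p in limma was 0.323. Its signal was the lowest of the 3 Sod2 probe sets, among the 40% of all probe sets with the lowest mean.

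The other Sod2 probe sets had smaller changes, of 0.09 ± 0.11 for 1417193_at and 0.08 ± 0.11 for 1448610_a_at. On 1417193_at the signals were 12.24 and 12.15 in starved liver and 12.10 and 12.10 in control liver, and on 1448610_a_at they were 12.24 and 12.14 in starved liver and 12.11 and 12.10 in control liver. Sod2 is known to rise with inflammation, and control 2 had the high acute phase signals given above. The part of inflammation in the Sod2 values was not tested. The control mice differed by 0.001 and 0.007 on these 2 probe sets, and by 0.15 on 1417194_at, where control 2 was the higher. Without control 2 the changes were 0.09, 0.46 and 0.08 in the order 1417193_at, 1417194_at and 1448610_a_at. Without starved 1 they were 0.049, 0.38 and 0.033, and without starved 2 they were 0.14, 0.39 and 0.13.

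**Figure D2:**
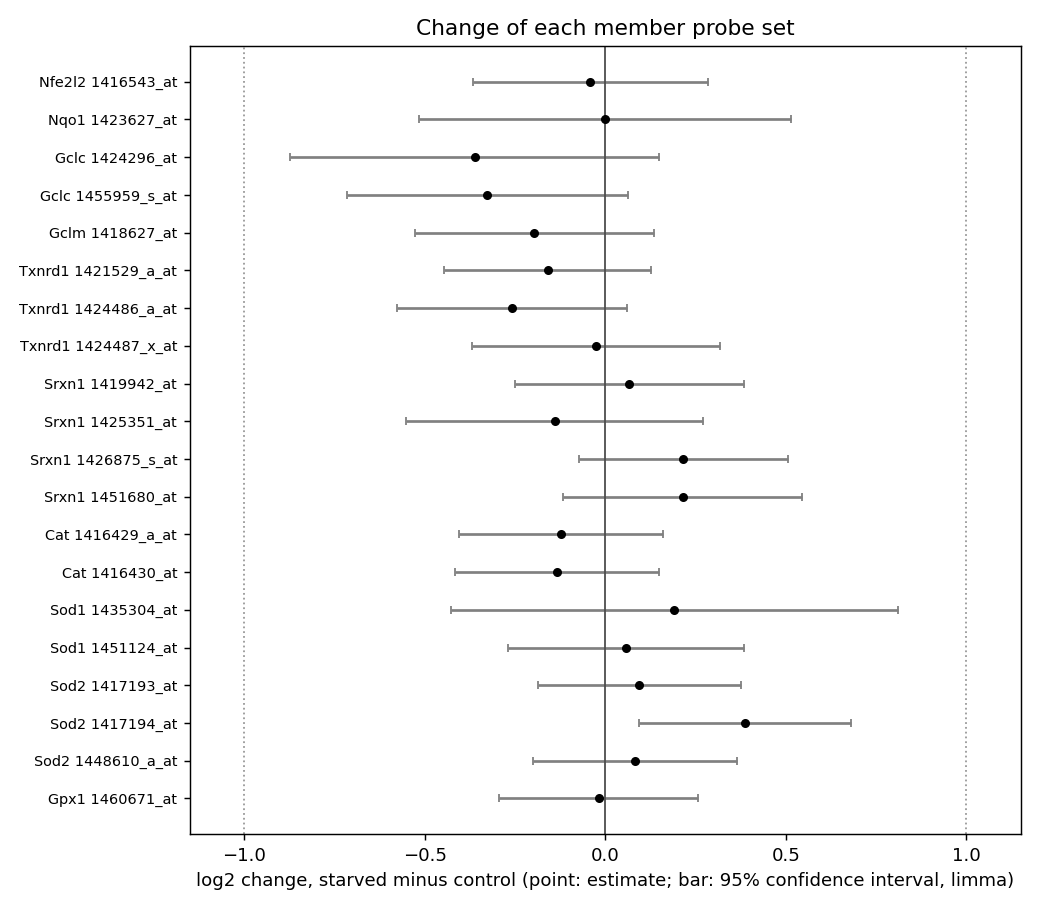
Log2 change (starved minus control) of the 20 probe sets, with the estimate as a point and the 95% confidence interval from limma as a bar; dotted lines mark a 2-fold change. All 20 bars lie between the dotted lines, and 19 cross 0, the exception being Sod2 1417194_at.

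Set against the whole array, the 20 probe sets covered the middle of the range of changes. Both starved mice lay above both control mice in 5 of them (2 of Srxn1 and 3 of Sod2), against 21.3% of all probe sets, and below in 6 (1 of Gclc, 1 of Gclm, 2 of Txnrd1 and 2 of Cat), against 20.6%. Together these are 55% of the 20, against 41.9% of all probe sets. Probe sets of a gene read the same RNA, and with 1 probe set per gene, the one with the highest mean, the count was 5 of 10 genes, or 50%, against 42.2% of all genes. In 11 of the 20, the change was smaller than the distance between the mice of one group. The share of all probe sets for which this holds was not computed, so the count is not read as a trait of these genes. A change past 2-fold occurred in 0 of the 20 and in 1.16% of all probe sets. The lowest of the 4 signals fell on starved 1 in 7 probe sets, on starved 2 in 4, on control 1 in 3 and on control 2 in 6. The highest fell on starved 1 in 5, on starved 2 in 4, on control 1 in 5 and on control 2 in 6. Shares over all probe sets were not computed for these counts either, so they are not read as a trait of these genes. The 5 genes with a TGACNNNGC match had changes on either side of 0, with means over their probe sets from -0.20 for Gclm to 0.12 for Sod1.

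**Figure D3:**
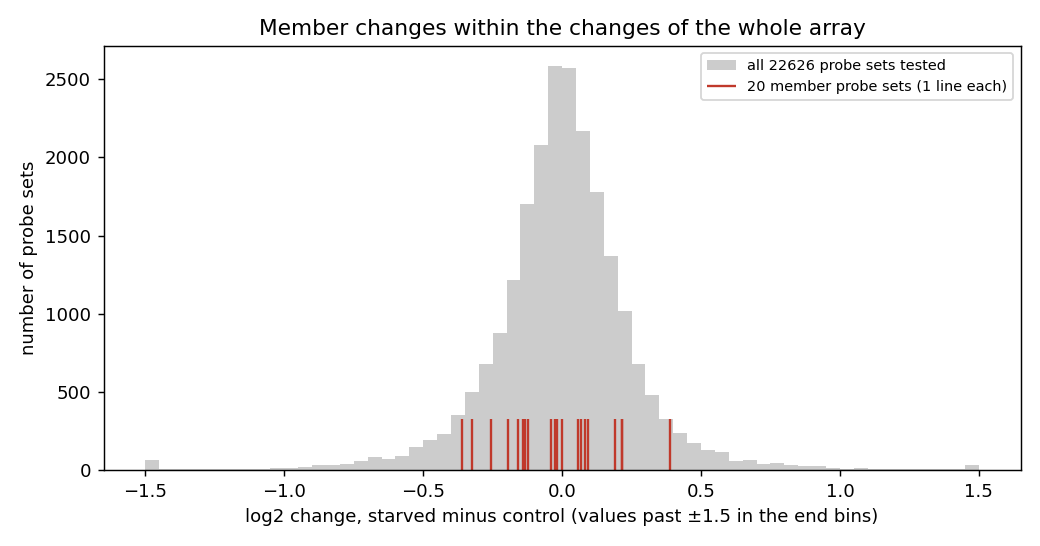
Histogram of the log2 changes (starved minus control) of all 22626 probe sets in grey, with values past the ends of the axis counted in the end bins, and the 20 probe sets of the antioxidant genes as red lines. The red lines lie between -0.36 and 0.39, around the centre of the grey distribution.

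The wider pathway was read through lists of other genes, which were chosen with earlier results of these data known. In the lists of NRF2 control, other NRF2 targets, the glutathione system, the thioredoxin and peroxiredoxin system, other superoxide and peroxide defence, selenoprotein synthesis and peroxide-producing oxidases, 0 probe sets passed limma's test over all probe sets. At an unadjusted p under 0.05 these lists had the counts given with each, beside 11.5% of the array.

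Among genes that control NRF2, 14 of 15 were measured by 21 probe sets, with 2 higher and 1 lower at an unadjusted p under 0.05 and a median log2 change of 0.09. Bach1, the repressor of antioxidant response elements, read 9.98 and 10.15 in starved liver and 9.52 and 9.46 in control liver on probe set 1440831_at, with a change of 0.58 ± 0.12 (SE). Its second probe set gave 0.51 ± 0.12, and the adjusted p in limma was 0.192 and 0.236. Mafg, a small MAF partner, had 0.41 ± 0.17 on 1448916_at and 0.23 ± 0.17 on 1434054_at. Bach2, the relative of BACH1 known from B cells, had -1.09 ± 0.25 (limma, adjusted p = 0.224).

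Of 35 other NRF2 targets, 28 were measured by 44 probe sets. At an unadjusted p under 0.05, 2 of these probe sets were higher and 13 lower, or 34.1%, against 11.5% over the array. With 1 probe set per gene, 2 of the 28 were higher and 8 lower, against 11.4% of all genes in either direction. The median log2 change was -0.16, or -0.08 with 1 probe set per gene. The smallest p-values belonged to the glutathione transferase Gstm3, with -1.72 ± 0.16 (limma, adjusted p = 0.0564), the pentose phosphate enzyme Tkt on 1439443_x_at, with -0.86 ± 0.12 (limma, adjusted p = 0.0926), and the prostaglandin reductase Ptgr1, with -1.38 ± 0.20 (limma, adjusted p = 0.106). Glutathione transferases supplied 13 of the 44 probe sets, and leaving them out gave a median of 0.01, with 9 of the remaining 31 lower and 1 higher at an unadjusted p under 0.05. Those 9 were probe sets of Tkt, Taldo1 and Pgd of the pentose phosphate pathway, of Ptgr1 and of Txn1. The higher one was of Cbr1, with 0.57 ± 0.23. Of the transferase probe sets, 4 were lower at that threshold and 1, of Gsta2, was higher, with 0.64 ± 0.19. These genes were chosen here after their values were seen. A second Gstm3 probe set, 1427473_at, had -0.37 ± 0.16, and transferases of closely related sequence may share signal on such an array. Hmox1, the heme oxygenase that BACH1 represses, also chosen after its values were seen, read 6.87 and 7.14 in starved liver and 6.93 and 7.87 in control liver, with a change of -0.39 ± 0.31.

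In the glutathione system, 19 of 23 genes were measured by 31 probe sets, with 4 higher and 3 lower at an unadjusted p under 0.05 (22.6%) and a median of -0.02. Glrx, the cytosolic glutaredoxin that uses glutathione to reduce protein disulfides, read 9.91 and 9.49 in starved liver and 8.64 and 8.52 in control liver on 1416593_at, a change of 1.11 ± 0.17 (limma, adjusted p = 0.106). The mitochondrial glutaredoxin Glrx2 had -0.40 ± 0.12 and the 5-oxoprolinase Oplah 0.52 ± 0.16. In the thioredoxin and peroxiredoxin system, 14 of 17 genes were measured by 27 probe sets, with 2 higher and 5 lower (25.9%) and a median of 0.03, or -0.11 with 1 probe set per gene. Sesn2, a stress-induced sestrin, had 0.76 ± 0.14 on 1425139_at and 0.19 ± 0.12 on its brighter probe set 1451599_at. Prdx4, the peroxiredoxin of the endoplasmic reticulum, had -0.65 ± 0.14 on 1416166_a_at and -0.38 ± 0.14 on its brightest probe set 1416167_at. Prdx2, an abundant cytosolic peroxiredoxin, had 0.53 ± 0.14 on 1430979_a_at and -0.10 ± 0.12 on 1418506_a_at.

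Other superoxide and peroxide defence genes, 9 of 10 measured by 15 probe sets, had 0 at an unadjusted p under 0.05 and a median of -0.04. In that list the copper chaperone Atox1 had 0.26 ± 0.12, and the paraoxonases Pon1 and Pon3 had 0.38 ± 0.25 and 0.21 ± 0.15. GPX1 and TXNRD1 depend on selenoprotein synthesis and selenium supply. The list of that name also holds other selenoproteins, such as Selenof and Selenok. In it, 13 of 15 genes were measured by 19 probe sets, with 0 higher and 1 lower and a median of -0.12. Selenof, a selenoprotein of the endoplasmic reticulum, had -0.41 ± 0.13, the selenocysteine lyase Scly -0.26 ± 0.11 and Selenok -0.26 ± 0.12. Of the oxidases that make hydrogen peroxide or superoxide, 10 of 13 were measured by 10 probe sets, with 1 higher and 3 lower and a median of -0.01. The glycolate oxidase Hao1 had -0.53 ± 0.13, the bile acid and branched-chain oxidase Acox2 0.50 ± 0.15 and the xanthine dehydrogenase Xdh -0.33 ± 0.11.

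**Figure D4:**
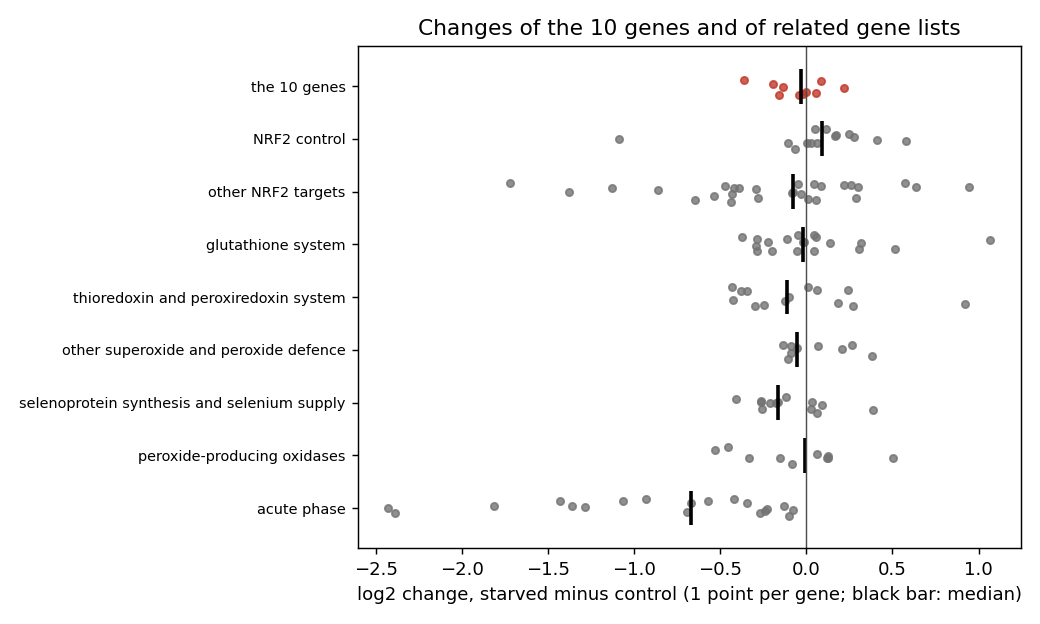
Log2 change (starved minus control) of the 10 antioxidant genes in red and of related lists and the acute phase list in grey, 1 point per gene from its brightest probe set and the median as a black bar; vertical scatter has no meaning. The 10 genes spread from -0.36 to 0.22 around a median of -0.03, and the acute phase list has its median at -0.67.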

How the data were processed

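The authors deposited log2 signals, 1 per probe set and array, and per the submitters' processing notes used affy and RMA for them. Which versions and settings, and which arrays were normalized jointly, is not given in the sources used here. Values from the file were checked for a log2 scale. RMA's quantile step hides a shift common to all transcripts, and no detection calls were used.

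Of 22690 probe sets, 64 controls were left out, and 22626 were tested. In the platform annotation 20380 had 1 symbol, 691 several and 1555 none, and the last 2 classes were not named. A RefSeq table (GRCm38.p6), matched on Entrez identifier, gave current symbols for 20351. The comparison of starved with control arrays used limma 3.58.1 (lmFit, eBayes; R 4.3.3), two-sided, without covariates, with Benjamini-Hochberg adjustment over all 22626 probe sets and a threshold of 0.05. The total degrees of freedom were 5.83. The labels call the samples biological replicates, so p-values reflect how far these mice spread. The smallest p of a 2 against 2 permutation is 0.333, too high to use.

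The genes and lists were chosen with earlier results of these data known. All 10 genes are named with each of their probe sets. Of the acute phase list and of each list of the wider pathway, the 3 genes with the smallest p are named, plus Saa3, Lcn2 and Orm2. Genes of the marker lists were not named, apart from Lyve1. Other genes carry a remark. Where a gene has several probe sets in a list, the named value is that with the smallest p. Alternatives were array scaling, a filter on low signals, 1 or averaged probe sets per gene, probe set type, trend and robust eBayes, a replicate block, each array left out and stricter thresholds.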

Additional observations from a re-analysis of the deposited data

How the results depend on the processing

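The count of antioxidant probe sets past limma's test was 0 in the fit reported and under all 14 alternatives. The stricter thresholds were read from the fit reported, where a count of 0 cannot rise. Of 214 recomputed changes of single probe sets, 201 kept their direction and 13 turned. Under the signal filter, 1 probe set per gene, probe set type, trend and robust eBayes and the replicate block, changes equal those reported by construction. Those could not turn, so the 201 is not a measure of stability. The 12 probe sets that turned in no alternative include those of Gclc, Gclm, Cat and Sod2. Nqo1 turned to -0.00090 with arrays shifted to a common median and to -0.0012 after a further quantile normalization. With 1 array left out, the log2 change ran from -0.15 to 0.065 for Nfe2l2, from -0.29 to 0.29 for Nqo1, from -0.16 to 0.11 for Txnrd1 1424487_x_at, from -0.025 to 0.16 for Srxn1 1419942_at, from -0.31 to 0.026 for Srxn1 1425351_at, from -0.18 to 0.57 for Sod1 1435304_at, from -0.063 to 0.18 for Sod1 1451124_at and from -0.045 to 0.0085 for Gpx1. The count over the array, 13, was 8 with 1 probe set per gene, 23 without _x_at and _s_at probe sets, 59 with trend and robust settings, 0 at an adjusted p of 0.01 and 2 to 57 with 1 array left out (57 without control 1 and 2 without starved 1). With the replicate number as a block it was 0. The numbers are shared labels and are not known to pair the mice: the differences between replicates 1 and 2 of the control and of the starved group correlated at r = 0.04 across probe sets, which are not independent. A group reduced to 1 array was assumed to have the spread of its counterpart. Apart from leaving an array out, the causes of these moves were not tested. Signal over background was not measured, so the lowest probe sets carry the least information. Those among the 40% of all probe sets with the lowest mean were Txnrd1 1424487_x_at, Srxn1 1425351_at and Sod2 1417194_at.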
